A study of Mus musculus with 11 samples.

Results

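Tal1, Lyl1, Lmo2, Runx1, Gata2, Spi1, Myb, Ikzf1 and Gfi1b encode transcription factors that specify or maintain blood stem cells. They were chosen by name, because the study asks about priming for blood, and are 9 of the 20717 protein-coding genes tested here. What was measured is 5-hydroxymethylcytosine (5hmC), a base that TET enzymes make by oxidising methylated cytosine, by HMCP-seq, in which DNA fragments carrying 5hmC are captured chemically and sequenced. The 11 mouse libraries came from wild-type cells of 2 lines. TET_WT, the parent of the Tet1, Tet2 and Tet3 triple knockout, was sampled as embryonic stem (ES) cells in 2i/Lif at day 0 (3 libraries) and during conversion to epiblast-like cells (EpiLC) at day 1 (2 libraries) and day 2 (3 libraries). DNMT_WT, the parent of the Dnmt1, Dnmt3a and Dnmt3b triple knockout, was sampled at EpiLC day 2 (3 libraries). Each genotype is 1 line, so a difference between TET_WT and DNMT_WT is a difference between these cultures. DNMT_WT has no day 0 or day 1 library here, so its own change over time is not known. The knockout lines and embryoid bodies were not analysed here.

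The protein products work together. Tal1 and its paralog Lyl1 are basic helix-loop-helix factors that bind DNA as partners of E proteins. Lmo2 bridges them to GATA factors such as Gata2. Runx1 is needed for blood stem cells to emerge from endothelium. Spi1 (PU.1) directs myeloid and B cell fates, Myb keeps progenitors dividing, and Ikzf1 (Ikaros) directs lymphoid fates. Gfi1b is a transcriptional repressor that acts within the erythroid and megakaryocytic lineages. In other cell types 5hmC is found over active gene bodies and enhancers, and it also marks sites where methylation is being removed. It is not a measure of expression.

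Values are the authors' log2 RPKM, where RPKM scales a tile's reads to its length and to library size, in 2 kb tiles. A gene's value is the mean over the tested tiles of its annotated GRCm38 span and 2 kb on either side. The 9 genes hold 252 such tiles, of which 251 were tested. None was lost to the filter on low values. The tile left out, in Spi1, had group means of 3.50 to 3.69 log2 RPKM and fell to the filter on the highest 0.1%. Of the 414 tiles that reach 20 kb to either side, 413 were tested. A value of 0 means an RPKM of 1. Since RPKM is relative to each library's total, a cell-wide gain or loss of 5hmC is not visible. Nor can fewer cells with 5hmC and less 5hmC per cell be told apart. The labels do not say that replicates came from separate cultures, so p-values measure only the spread between these libraries.

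Library depth ran from 7342015 to 51604034 recovered reads, the fewest in TET_WT day 1 replicate 2. TET_WT day 0 replicate 2 stood apart from the other day 0 libraries. Its gene values correlated with each of theirs at r = 0.935, against 0.957 between the other pair, and 30.22% of its tiles held no read, against 15.64% and 13.12%. The differences given below for the listed transcription factor genes were refitted without it. So were the largest called tile changes of each from day 0 to day 2, and the start tiles called between the lines. Where leaving it out changed a call or moved a value of a gene by over 1.5 times, the value without it is given. Differences of other genes and other tiles were not tested without that library, nor were spans with wider flanks. In this assay 8 of 8 genes that mark naive ES cells were called higher in 5hmC at day 2 than at day 0 (median difference 1.88), as were 4 of 6 genes of the primed epiblast and 1 of 8 genes of fibroblasts and feeder cells (Thy1, 0.54). Of all genes, 15.3% were called higher in that comparison. The part of a change in cell makeup in the results below was not tested.

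The annotated starts differ widely in CG dinucleotides (CpG), the only sites where mammalian 5hmC is common. RefSeq's GRCm38.p6 promoter table, which covers 250 bases before to 50 after a start, held 11 entries for 7 of the 9 genes. The table has none for Spi1 and Lmo2. Of all 32851 promoters in it, the median holds 7 CpG. Below are 5 of them. The tiles of the Lyl1, proximal Runx1 and second Gata2 promoters carry called differences, and those of the distal Runx1 and Myb promoters, which carry none, are shown for contrast. Each is read 5′ to 3′ on the gene's strand, with every CG in capitals.
Lyl1, chr8:84701207-84701506, plus strand: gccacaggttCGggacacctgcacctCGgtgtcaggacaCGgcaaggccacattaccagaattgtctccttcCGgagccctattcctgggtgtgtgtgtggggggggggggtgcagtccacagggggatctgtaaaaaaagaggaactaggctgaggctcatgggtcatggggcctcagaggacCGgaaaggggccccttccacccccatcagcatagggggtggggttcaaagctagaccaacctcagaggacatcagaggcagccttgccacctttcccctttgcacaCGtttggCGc
Runx1 first (distal) start, chr16:92826025-92826324, minus strand: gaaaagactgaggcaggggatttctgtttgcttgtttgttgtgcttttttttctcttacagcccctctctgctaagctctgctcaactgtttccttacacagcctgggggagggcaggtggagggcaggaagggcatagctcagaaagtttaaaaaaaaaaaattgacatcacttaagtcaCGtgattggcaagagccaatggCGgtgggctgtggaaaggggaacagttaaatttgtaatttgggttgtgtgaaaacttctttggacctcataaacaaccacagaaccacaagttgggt
Runx1 second (proximal) start, chr16:92697280-92697579, minus strand: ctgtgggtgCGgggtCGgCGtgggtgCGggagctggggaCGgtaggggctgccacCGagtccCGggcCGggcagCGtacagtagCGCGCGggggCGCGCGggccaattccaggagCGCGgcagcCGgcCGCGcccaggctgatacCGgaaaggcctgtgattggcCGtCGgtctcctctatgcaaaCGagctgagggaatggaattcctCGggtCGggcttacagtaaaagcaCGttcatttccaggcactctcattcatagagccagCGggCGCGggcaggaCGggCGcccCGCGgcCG
Gata2 second start, chr6:88198414-88198713, plus strand: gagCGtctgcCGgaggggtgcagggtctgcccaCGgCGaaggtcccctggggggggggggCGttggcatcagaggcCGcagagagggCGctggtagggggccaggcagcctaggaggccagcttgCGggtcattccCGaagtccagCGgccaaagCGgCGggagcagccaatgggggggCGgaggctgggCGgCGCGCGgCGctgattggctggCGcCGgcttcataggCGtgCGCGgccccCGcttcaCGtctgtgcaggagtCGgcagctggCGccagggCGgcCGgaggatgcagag
Myb, chr10:21160935-21161234, minus strand: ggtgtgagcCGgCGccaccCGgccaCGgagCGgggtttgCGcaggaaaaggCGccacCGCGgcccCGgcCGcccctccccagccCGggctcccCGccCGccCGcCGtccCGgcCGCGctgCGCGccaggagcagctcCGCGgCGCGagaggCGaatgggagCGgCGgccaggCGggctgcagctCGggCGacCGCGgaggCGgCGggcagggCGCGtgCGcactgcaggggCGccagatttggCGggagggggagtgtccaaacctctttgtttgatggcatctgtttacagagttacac
Lyl1 has 7 CpG in this window, and 52.1% of promoters have as many. The distal Runx1 promoter has 2 (85.9% have as many), while the proximal one has 35 (6.95%). The second Gata2 start has 29 (12.9%), its first start 32 (9.52%), and Myb has 40 (3.91%). Of those not shown, Tal1 has 11 and 22 CpG at its 2 starts and Gfi1b has 7. Ikzf1 has 52 at its first start (0.575% have as many) and 2 at its second. The tile of the first Ikzf1 start carries a called difference as well, between day 1 and day 2 only.

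At day 0 the 9 genes were spread over most of the range of all genes. Gata2 was highest, with a mean of 1.06 ± 0.30 log2 RPKM (SD, n = 3), at the 90.5th percentile of all genes tested. It was followed by Gfi1b at 0.86 ± 0.38, Spi1 at 0.83 ± 0.25 and Runx1 at 0.83 ± 0.04, then Lyl1 at 0.63 ± 0.07 and Myb at 0.45 ± 0.31. The order among these is not resolved, since the ranges of neighbours overlap for all but Runx1 and Lyl1. Lmo2 at 0.03 ± 0.17 and Tal1 at −0.64 ± 0.05 lay nearer the middle of all genes, at the 60.5th and 41.9th percentiles. Ikzf1 was lowest at −1.68 ± 0.07, the 24th percentile, and remained lowest in every group.

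Between day 0 and day 2 of TET_WT, 5hmC rose over Tal1 and Lyl1 and fell over Runx1. The other 6 genes did not pass the test. The 2 called higher compare with 15.3% of all genes called higher, and the 1 called lower with 2.51% called lower (limma, adjusted p under 0.05). The median difference of the 9 genes was 0.23 against 0.09 for all genes, of which 61% were positive. The day 2 libraries lay wholly above day 0 for Tal1, Lyl1, Myb and Ikzf1, an arrangement found in 23.6% of all genes, and wholly below for Runx1, found in 7.95%.

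**Figure D1:**
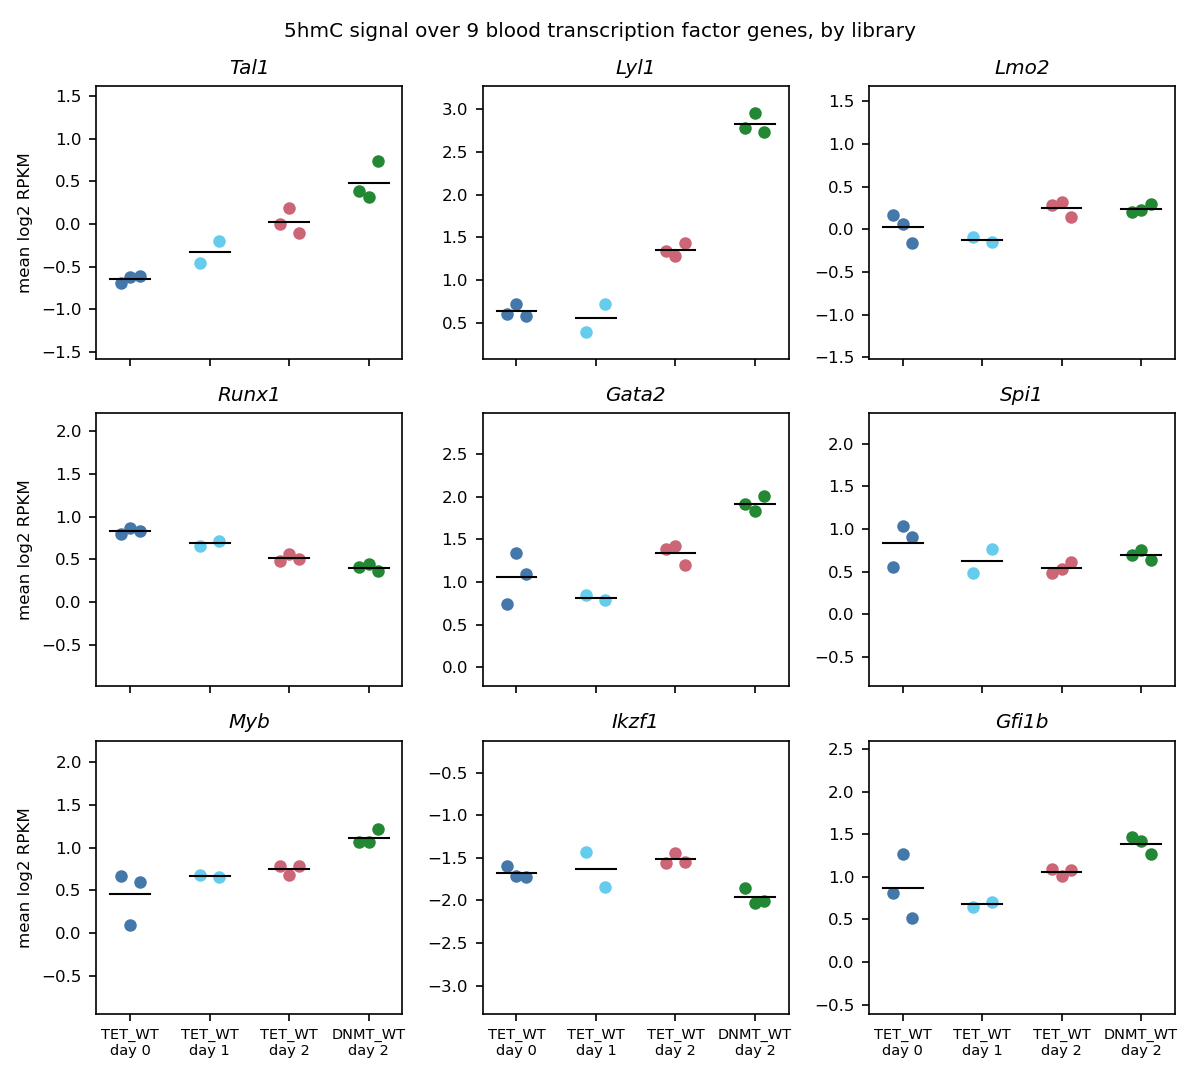
Mean log2 RPKM of each gene (vertical axis, all panels spanning an equal range but centred differently) in each library, with 1 point per library, a bar at the group mean, and the 4 groups along the horizontal axis. Lyl1 climbs from 0.63 at day 0 to 1.35 at day 2 and 2.82 in DNMT_WT, while Runx1 steps down from 0.83 to 0.52.

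Lyl1, the Tal1 paralog that sustains adult blood progenitors, showed the largest change of the 9. Its day 0 libraries read 0.60, 0.72 and 0.58 log2 RPKM and its day 2 libraries 1.34, 1.29 and 1.43, with every day 2 library above every day 0 library. The difference was 0.72 (SE 0.10, limma adjusted p = 0.000432). The gene lies on chromosome 8 from 84701423 to 84704716, so its value rests on 5 tiles, which held 58 to 1282 reads per library. Of these, 3 were called higher at day 2 and 0 lower. The tile that holds the start, and with it most of the promoter shown above, rose by 1.25 (SE 0.23, adjusted p = 9.06e-06), from 60, 37 and 63 reads in the day 0 libraries to 88, 55 and 80 in the shallower day 2 libraries. That call was lost without a variance trend (adjusted p = 0.0853). The tile with the gene's middle, 1.6 kb downstream, was already at 2.09 at day 0 and differed by 0.17 (adjusted p = 0.739). The other called tiles lay 3.6 and 5.6 kb downstream and rose by 1.20 (adjusted p = 0.0217) and 1.0 (adjusted p = 0.016). The nearer of these holds the gene's end, but most of it lies in the neighbouring gene Nfix, and the further lies wholly within Nfix.

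Tal1, the master regulator of blood specification, rose from a lower level. Its libraries read −0.70, −0.62 and −0.61 at day 0 and 0.00, 0.19 and −0.10 at day 2, so the groups were fully separate. The difference was 0.67 (SE 0.14, adjusted p = 0.00612), and the percentile among all genes went from 41.9 to 55.3. The gene spans 115056426 to 115071755 on chromosome 4. Of its 10 tiles 2 were called, both higher and neighbouring, 2.6 kb and 4.6 kb downstream of the first start. The nearer one held the highest 5hmC in the gene, 1.42 at day 0 and 2.03 at day 2, a difference of 0.61 (adjusted p = 0.03). The further one rose by 1.35 (SE 0.35, adjusted p = 0.00358), a call that is lost without day 0 replicate 1 (1.06, adjusted p = 0.0603). That call was also lost without a variance trend (adjusted p = 0.133). The tile that holds both annotated starts differed by 0.59 (adjusted p = 0.567).

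Runx1 moved the other way. Its day 0 libraries read 0.79, 0.87 and 0.83 log2 RPKM and its day 2 libraries 0.48, 0.56 and 0.51, with no overlap. The difference was −0.32 (SE 0.09, adjusted p = 0.0242), and its percentile went from 85 to 69.9. The call was lost without day 0 replicate 3 (adjusted p = 0.0629) and without day 2 replicate 1, 2 or 3 (0.0932, 0.0601 and 0.0809), though the difference stayed between −0.34 and −0.30. It was also lost when libraries were centred on their median tile (−0.23, adjusted p = 0.6).

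**Figure D2:**
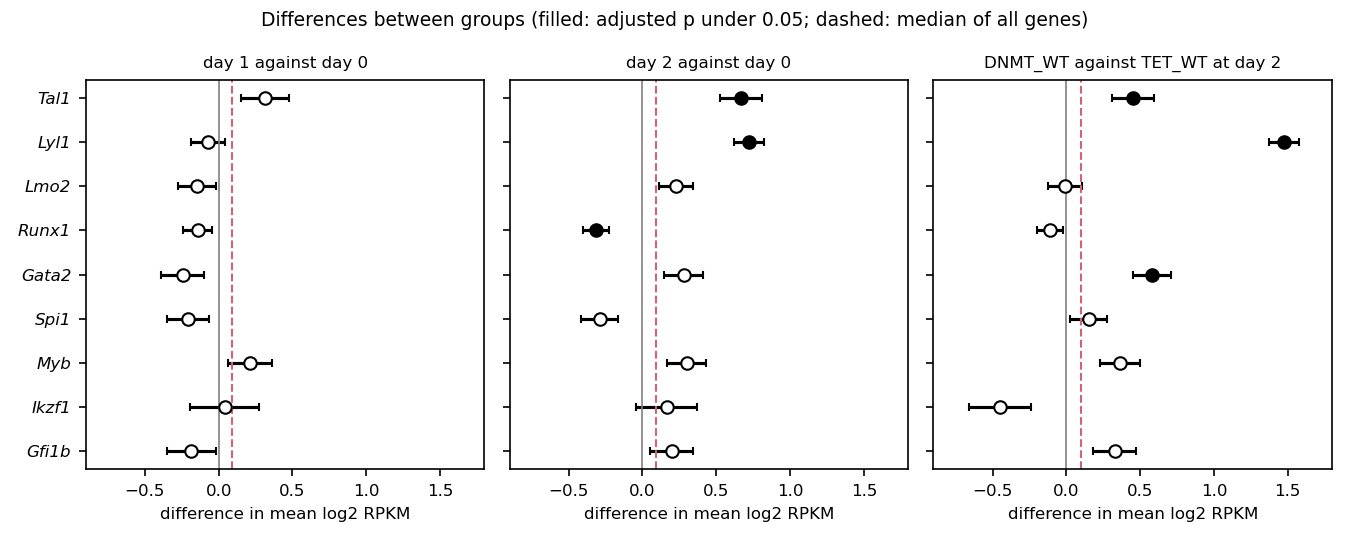
Difference in mean log2 RPKM (horizontal axis) with its standard error for each gene in 3 comparisons; filled points have a limma adjusted p under 0.05 and the dashed line is the median of all genes. No gene is filled at day 1, Tal1, Lyl1 and Runx1 are filled at day 2, and Tal1, Lyl1 and Gata2 are filled between the lines.

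Of the other partners of Tal1, Gata2, which maintains blood stem cells, had one of the noisiest day 0 groups. Its libraries read 0.75, 1.34 and 1.09 at day 0 and 1.39, 1.43 and 1.20 at day 2, and the groups overlapped. The difference was 0.28 (SE 0.13, adjusted p = 0.175), 0.42 (adjusted p = 0.0156) without day 0 replicate 2, the highest of its group, and 0.12 (adjusted p = 0.575) without day 0 replicate 1, the lowest. Lmo2, the bridging protein, read 0.17, 0.06 and −0.16 at day 0 and 0.29, 0.32 and 0.15 at day 2. It differed by 0.23 (SE 0.12, adjusted p = 0.226), or 0.13 (adjusted p = 0.552) without day 0 replicate 3, and its groups overlapped.

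Myb, Spi1, Ikzf1 and Gfi1b were not called either. Myb read 0.67, 0.10 and 0.60 at day 0 and 0.79, 0.68 and 0.79 at day 2, a difference of 0.30 (SE 0.13, adjusted p = 0.154). Without the low day 0 replicate 2 it was 0.12 (adjusted p = 0.282). The difference thus rested in large part on that library. Spi1 read 0.56, 1.03 and 0.91 at day 0 and 0.48, 0.54 and 0.61 at day 2, a difference of −0.29 (SE 0.13, adjusted p = 0.146), which became −0.43 (adjusted p = 0.0303) without day 0 replicate 1 and −0.19 (adjusted p = 0.267) without day 0 replicate 2. Gfi1b read 0.81, 1.27 and 0.52 at day 0 and 1.09, 1.01 and 1.09 at day 2, a difference of 0.20 (SE 0.15, adjusted p = 0.442). Its day 0 libraries spanned the day 2 ones, and without the high day 0 replicate 2 the difference was 0.40 (adjusted p = 0.0121), and without the low day 0 replicate 3 it was 0.03 (adjusted p = 0.935). Ikzf1 read −1.60, −1.71 and −1.73 at day 0 and −1.56, −1.44 and −1.55 at day 2, a difference of 0.16 (SE 0.21, adjusted p = 0.698), which voom on recovered reads put at 0.38 and called (adjusted p = 0.00527). Voom also called Gata2 at 0.40 (adjusted p = 0.00763), Gfi1b at 0.36 (adjusted p = 0.0358) and Lmo2 at 0.28 (adjusted p = 0.0292).

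Single tiles moved more than whole genes. Over the 251 tested tiles, 25 rose and 17 fell between day 0 and day 2, or 9.96% and 6.77%, against 5.33% and 2.68% of all 1183891 tested tiles. Runx1 supplied 21 of these 42, with 7 higher and 14 lower of its 116 tiles. Tiles within genes were not counted apart among all tiles, so the share of all tiles is no measure of them. Tiles of 1 gene share their sequence neighbourhood and are not replicates of each other.

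Runx1 is the longest of the 9 genes, from 92601466 to 92826074 on chromosome 16, and its 2 promoters lie 128.7 kb apart. In the 66 tiles from the distal to the proximal start the median level went from 0.21 to −0.18, the median difference was −0.45, and 50 were negative. Only 4 of them were called, 1 higher and 3 lower. In the 50 tiles from the proximal start to the gene's end, 5hmC was higher throughout the time course, with medians of 1.69 and 1.43. There 6 tiles rose and 11 fell, interleaved along the gene. The largest fall of a called tile, 97.1 kb from the distal start, was −1.70 (SE 0.47, adjusted p = 0.00758), on 73, 39 and 67 reads at day 0 and 19, 6 and 10 at day 2. The call was lost without day 2 replicate 2 (adjusted p = 0.0797) and without a variance trend (0.0763).

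Within this falling gene, 1 tile showed the smallest adjusted p of any tile in the 9 genes. It lies 181.1 kb downstream of the distal start, at chr16:92644001-92646000, and rose by 1.74 (SE 0.15, adjusted p = 1.59e-20). Its reads numbered 147, 107 and 133 at day 0, 41 and 131 at day 1, 287, 182 and 306 at day 2, and 578, 228 and 414 in DNMT_WT. The count went up although the day 2 libraries were shallower. The tile was already higher at day 1, by 0.78 (adjusted p = 0.00356), and its neighbour at 179.1 kb rose by 1.06 at day 2 (adjusted p = 0.00033). A second strong rise lay 141.1 kb downstream, at 1.45 (adjusted p = 1.3e-09). Neither distance is that of a start. The tile of the distal promoter itself differed by −0.85 (SE 0.29, adjusted p = 0.0521), and that of the proximal promoter by −0.63 (adjusted p = 0.557).

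**Figure D3:**
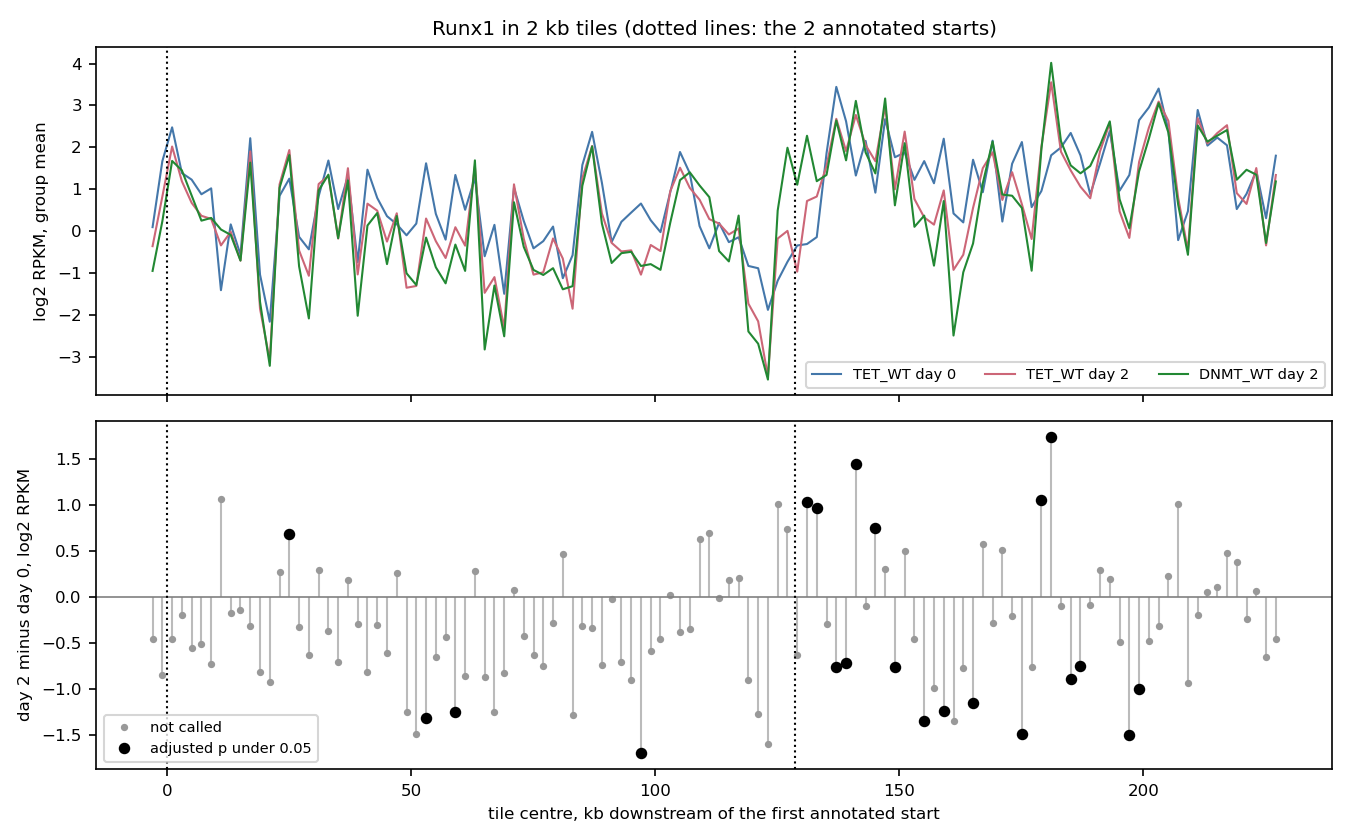
Runx1 in 2 kb tiles against kb downstream of the distal start, with group means of log2 RPKM above and the day 2 minus day 0 difference below; black points are called tiles and dotted lines mark the 2 starts. Called tiles of both signs crowd the part after the second start, at 128.7 kb, and the highest rise stands at 181.1 kb.

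In Gata2 (chromosome 6, 88193891 to 88207032) 3 of 10 tiles rose and 0 fell. The strongest, 11.1 kb from the first start near the gene's end, rose by 1.88 (SE 0.21, adjusted p = 1.89e-13), from 62, 64 and 64 reads at day 0 to 155, 115 and 146 at day 2. It was at 0.79 log2 RPKM at day 0 and 0.76 at day 1, so it moved after day 1. The adjacent tile, 9.1 kb from the start, did something else. It went from 2.38 at day 0 to 1.60 at day 1, a fall of −0.78 (SE 0.19, adjusted p = 0.0179), and was at 2.55 at day 2 (difference from day 0 of 0.18, adjusted p = 0.707). It holds the position of the Gata2 +9.5 enhancer, an intronic element required for blood stem cell emergence.

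In Myb (chromosome 10, 21124930 to 21160984) all 4 called tiles rose, and they are adjacent, 26 to 32 kb downstream of the start in the last part of the gene. The largest difference there was 2.18 (SE 0.35, adjusted p = 3.88e-07), from 32, 18 and 16 reads at day 0 to 63, 41 and 68 at day 2. By contrast the tile with the CpG-rich Myb promoter shown above was nearly empty, at −3.56 log2 RPKM at day 0 with 3, 2 and 5 reads, and differed by 0.43 (adjusted p = 0.894).

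The other 4 genes had 1 to 5 called tiles each. Ikzf1 (chromosome 11, 11684962 to 11772930), low over most of its 47 tiles, had 2 that rose, at 68 and 70 kb, by 1.23 (SE 0.22, adjusted p = 6.38e-06) and 1.0 (adjusted p = 0.0102). Without a variance trend the call at 68 kb was lost (adjusted p = 0.0689). Spi1 (chromosome 2, 91082374 to 91115759) had 2 tiles that rose and 3 that fell of 18. Its largest rise was 1.20 (SE 0.34, adjusted p = 0.0108) and its largest fall −1.62 (SE 0.55, adjusted p = 0.0458), and both calls were lost when single day 2 libraries were left out. The call on the fall was also lost without any 1 of the 3 day 0 libraries (adjusted p from 0.0543 to 0.193, and 0.109 without replicate 2). Lmo2 (chromosome 2, 103957903 to 103981878) had 1 tile of 15, at 0.60 (adjusted p = 0.0318), and Gfi1b (chromosome 2, 28609450 to 28621982) 1 of 9, at 0.51 (adjusted p = 0.0115). These last calls were likewise lost without single libraries, such as day 0 replicate 1 (0.133 and 0.119, as adjusted p).

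The start tiles of these genes ranged at day 0 from −3.56 log2 RPKM at Myb to 1.67 at the distal Runx1 start. The 26689 tiles that hold an annotated start had a median of −0.99 at day 0, against −1.62 for all tested tiles, and their median difference to day 2 was 0.27. Only the Lyl1 start was called between day 0 and day 2 among the start tiles of the 7 genes with promoter entries. The first Gata2 start differed by −0.20, the second by 1.08 (adjusted p = 0.0723), the first Ikzf1 start by 1.18 (adjusted p = 0.178) and the Gfi1b start by 0.02. That Ikzf1 tile was called between day 1 and day 2, at 3.10 (SE 0.58, limma adjusted p = 5.3e-05). It rested on 0 and 3 reads at day 1, against 33, 19 and 24 at day 2.

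Enhancers known from blood cells were read from the tiles at their nominal distances, counted here from the annotated start. The elements were chosen from background knowledge, and their published distances may be counted from another base. Between day 0 and day 2 the tile of the Tal1 +19 stem cell enhancer differed by 0.77 (SE 0.46, adjusted p = 0.41), and that of the Runx1 +23 enhancer by 0.27 (SE 0.29, adjusted p = 0.729). The tile of the Gfi1b +16 element differed by 0.03 (SE 0.23, adjusted p = 0.978). With the Gata2 +9.5 tile at 0.18, none of the 4 was called over the 2 days by limma.

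On the first day alone no gene of the 9 was called, and 0% of all genes were called higher and 0% lower (limma). None of the 9 reached an unadjusted p under 0.05, and voom on recovered reads called 0. Differences ran from −0.25 for Gata2 (SE 0.15, adjusted p = 0.512, and −0.10 without day 0 replicate 2) to 0.31 for Tal1 (SE 0.16, adjusted p = 0.443), whose day 1 libraries read −0.46 and −0.20. The day 1 group has 2 libraries and holds the shallowest. Of the 251 tiles, 1 rose and 1 fell, or 0.398% each, against 0.601% and 0.409% of all tiles. They are the Runx1 tile at 181.1 kb and the Gata2 +9.5 tile.

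Between day 1 and day 2, Lyl1 and Gata2 rose, against 8.99% of all genes called higher and 0.599% called lower, and none of the 9 fell. Lyl1 went from 0.40 and 0.72 to the day 2 values above, a difference of 0.79 (SE 0.11, adjusted p = 0.00119). That call was lost with voom (0.43, adjusted p = 0.131) and with median centring (0.83, adjusted p = 0.143). Gata2 went from 0.84 and 0.78, a difference of 0.53 (SE 0.15, adjusted p = 0.0383). The Gata2 call was lost when any 1 of 8 libraries was left out, with adjusted p from 0.0526 to 0.143: either day 1 library, or any day 2 library of either line. Lmo2 differed by 0.37 (adjusted p = 0.0953, and 0.0475 without day 0 replicate 2), Tal1 by 0.36 (adjusted p = 0.201) and Runx1 by −0.17 (adjusted p = 0.312). Of the 251 tiles 12 rose and 4 fell (4.78% and 1.59%), against 2.41% and 0.551% of all tiles. Here too the share of all tiles is no measure of tiles within genes. These values share the day 1 libraries with those of the first day.

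Whether the second day's change differed from the first day's was tested directly. For Lyl1, which went from 0.63 to 0.56 and then to 1.35, the second step exceeded the first by 0.87 (SE 0.21, adjusted p = 0.0685). No gene of the 9 was called by limma, against 0.956% of all genes called higher and 0.029% lower. Unadjusted p was under 0.05 for 3 of the 9, and voom called 0. Without day 1 replicate 3 Lyl1 was called (1.19, adjusted p = 0.0423), and without day 1 replicate 2 the value was 0.54 (adjusted p = 0.527).

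At day 2 the 2 wild-type lines differed over 3 of these genes. Lyl1, Gata2 and Tal1 were higher in DNMT_WT than in TET_WT, and none was lower. This compares with 14.9% of all genes called higher and 4.07% called lower. The median difference was 0.33 over the 9 genes and 0.10 over all. The 3 DNMT_WT libraries lay wholly above the 3 TET_WT libraries for Tal1, Lyl1, Gata2, Spi1, Myb and Gfi1b, as in 32.8% of all genes, and wholly below for Runx1 and Ikzf1, as in 15.5%. Both comparisons use the TET_WT day 2 libraries, so their values are given side by side only. Centring libraries on their median tile moved the median of all genes in this comparison from 0.10 to 0.31.

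Lyl1 stood out among the 9. Its DNMT_WT libraries read 2.79, 2.96 and 2.73 log2 RPKM, against 1.34, 1.29 and 1.43 in TET_WT. The difference was 1.47 (SE 0.10, adjusted p = 1.95e-05). By its level in DNMT_WT the gene ranked 28 among all 20717, and by this difference it ranked 97. All 5 tiles of its window were called higher. The first of them lies beyond the gene, mostly in its neighbour Trmt1, and the last wholly in Nfix. The start tile differed by 1.33 (SE 0.23, adjusted p = 7.82e-06), with 317, 121 and 209 reads in DNMT_WT, and the tile 5.6 kb downstream by 2.43 (SE 0.30, adjusted p = 5.91e-11). Without a variance trend the call on the start tile was lost (adjusted p = 0.126). In the tile that holds the gene's end, TET_WT was at 0.39 log2 RPKM and DNMT_WT at 2.20. In the tiles before and after it, TET_WT was at 2.26 and 0.53, and DNMT_WT at 3.12 and 2.96.

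Gata2 read 1.91, 1.84 and 2.01 in DNMT_WT, against 1.39, 1.43 and 1.20. The difference was 0.58 (SE 0.13, adjusted p = 0.00896), with no overlap, and 5 of 10 tiles were called higher. They include the tile of its second promoter, shown above with 29 CpG, which differed by 1.63 (SE 0.39, adjusted p = 0.00371) on 26, 20 and 22 reads in TET_WT and 133, 37 and 90 in DNMT_WT. That call was lost without DNMT_WT replicate 1 (adjusted p = 0.0545) and without a variance trend (0.281). The +9.5 tile was also higher, by 0.76 (adjusted p = 0.00221). The gene-level difference did not extend to the wider locus. Over the span with 20 kb on either side it was −0.23 (adjusted p = 0.134). It was not called at equal depth (0.50, adjusted p = 0.108) or with median centring (0.79, adjusted p = 0.0519).

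Tal1 read 0.39, 0.32 and 0.74 in DNMT_WT against 0.00, 0.19 and −0.10, a difference of 0.45 (SE 0.14, adjusted p = 0.0437). The call was lost when any 1 of the 6 libraries compared was left out (adjusted p from 0.0515 to 0.192), with the replicate number as a block (0.0602) and at equal depth (0.161). A single Tal1 tile was called, the 5hmC peak 2.6 kb from the start, at 2.03 in TET_WT and 3.19 in DNMT_WT (difference 1.16, adjusted p = 5.81e-06).

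Runx1 as a whole differed by −0.11 (SE 0.09, adjusted p = 0.428), and the sign turned with median centring (0.10). The tile of its proximal promoter, shown above with 35 CpG, did differ in the main fit. It was at −0.97 log2 RPKM in TET_WT and 1.11 in DNMT_WT, a difference of 2.08 (SE 0.46, adjusted p = 0.00123). It held 8, 11 and 15 reads in TET_WT and 75, 30 and 57 in DNMT_WT. That call was lost without a variance trend (adjusted p = 0.124). The tiles on either side, at 127.1 and 131.1 kb, were higher by 1.99 (adjusted p = 0.000122) and 1.56 (adjusted p = 0.000774), and these 3 adjacent tiles are all the Runx1 tiles called between the lines. The CpG-poor distal promoter's tile held 34, 33 and 49 reads in TET_WT and 25, 27 and 31 in DNMT_WT and was not called (−0.59).

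The other genes were not called between the lines. Myb read 1.07, 1.07 and 1.22 in DNMT_WT, a difference of 0.36 (SE 0.13, adjusted p = 0.0753), and Gfi1b read 1.47, 1.42 and 1.27, a difference of 0.33 (SE 0.15, adjusted p = 0.147). Without TET_WT day 0 replicate 2, which enters this comparison only through the shared estimate of spread, both were called (adjusted p = 0.00425 and 0.0189). Ikzf1 read −1.86, −2.02 and −2.01, a difference of −0.45 (SE 0.21, adjusted p = 0.158, and 0.0463 without that library). Spi1 at 0.70, 0.75 and 0.64 differed by 0.15 (SE 0.13, adjusted p = 0.46), and Lmo2 at 0.20, 0.22 and 0.30 by −0.01 (SE 0.12, adjusted p = 0.971). Over the tiles of all 9 genes 16 were higher and 0 lower in DNMT_WT by limma (6.37% and 0%). Of all tiles, 1% were higher and 2.24% lower, whereas of all genes 14.9% were higher and 4.07% lower. Tiles within genes were not counted apart, so the share of all tiles is no measure of them.

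**Figure D4:**
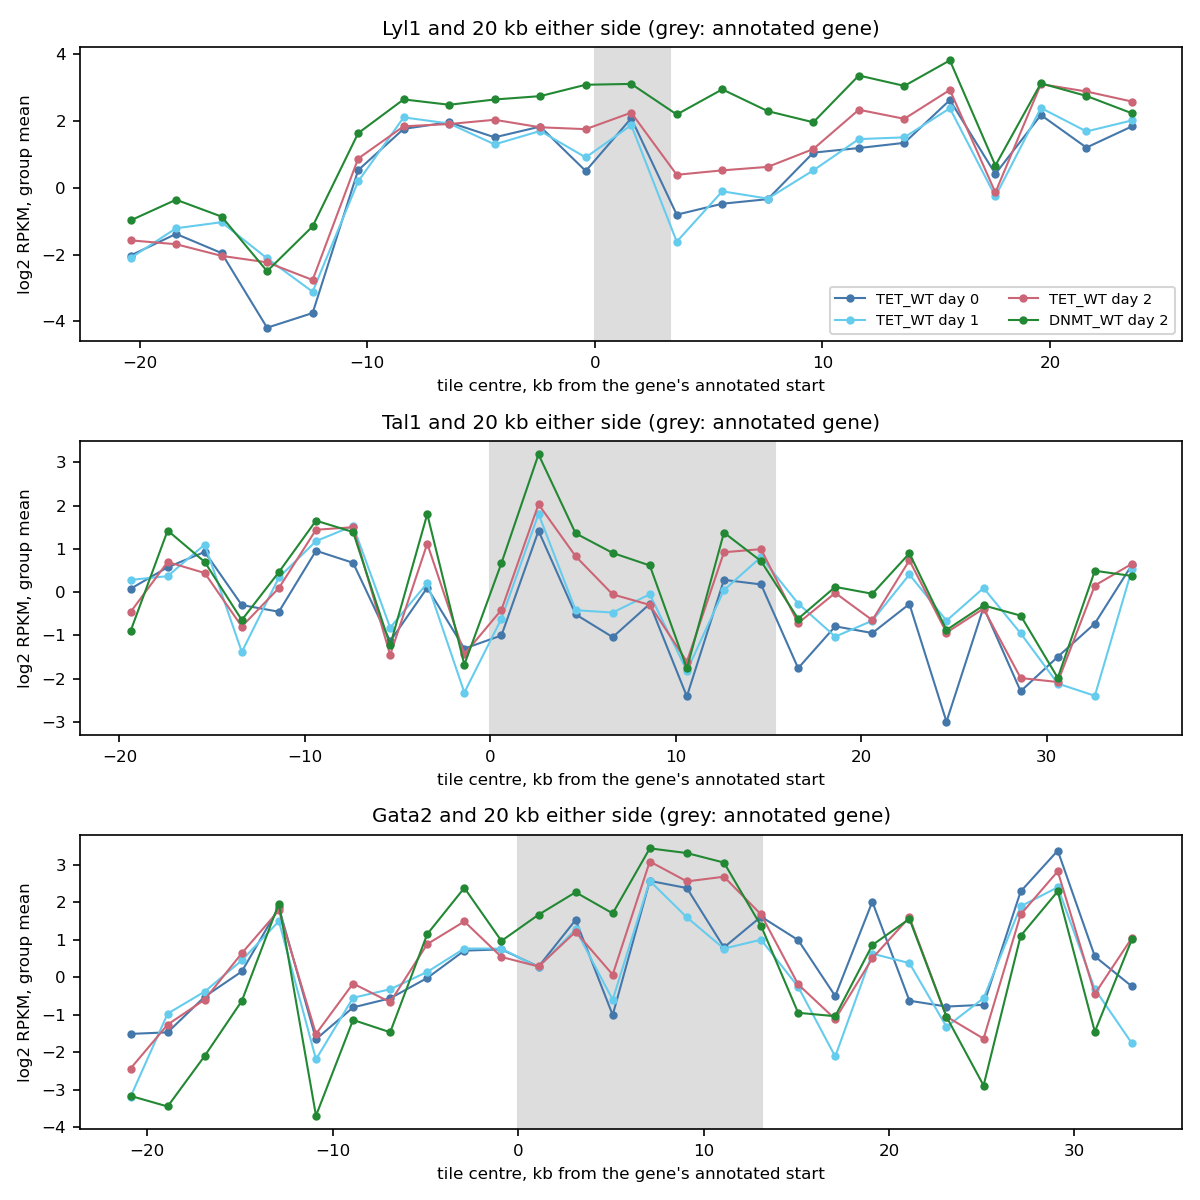
Group means of log2 RPKM (vertical axis) in 2 kb tiles over Lyl1, Tal1 and Gata2 and 20 kb on either side, against kb from the gene's start; the annotated gene is grey. In Lyl1 DNMT_WT lies above the other groups across the gene and most tiles around it. In Gata2 it is above them in all gene tiles but the last, at 13.1 kb, and not in most of the flanks.

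Of the 162 tested tiles in the flanks of the 9 genes, 2 to 20 kb out, 23 rose and 5 fell from day 0 to day 2 (14.2% and 3.09%), against 5.33% and 2.68% of all tiles. Tiles near genes were not counted apart either, so the share of all tiles is no measure of them. Around Lyl1 6 of 18 rose and 0 fell, around Tal1 4 of 18 and 0, and around Spi1 4 of 18 and 0. Between the lines 5 of the 18 around Lyl1 were higher in DNMT_WT, where 1% of all tiles were, and 0 around Tal1 or Spi1 by limma. The genes next to Lyl1 moved in the same direction. Nfix, a nuclear factor gene whose span overlaps the end of Lyl1, rose by 0.53 (SE 0.11, adjusted p = 0.00543) and was higher in DNMT_WT by 0.68 (adjusted p = 0.00175). Nacc1, on the other side, rose by 0.53 (adjusted p = 0.0239) and was higher by 0.67 (adjusted p = 0.00766). Trmt1, a tRNA methyltransferase gene, differed by 0.56 (adjusted p = 0.0521) and by 0.84 between lines (adjusted p = 0.00776). The windows of Trmt1 and Nfix overlap that of Lyl1 and share its tiles. With flanks to 20 kb included, Lyl1 rose by 0.59 (adjusted p = 0.000203).

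Next to Tal1, which rose by 0.45 with flanks included (adjusted p = 0.00336), Stil and Pdzk1ip1 differed by −0.12 and −0.26 and were not called (adjusted p = 0.786 and 0.504). Beyond Gata2, the chaperone gene Dnajb8 fell by 0.72 (adjusted p = 0.0371) and was lower in DNMT_WT by −0.70 (adjusted p = 0.0399), opposite in sign to Gata2. Flank tiles of Gata2 moved both ways, such as 1 tile 19.1 kb from its start at −1.51 (adjusted p = 1.25e-05) and the next at 2.22 (adjusted p = 1.21e-09). Near Spi1, Slc39a13 differed by 0.38 (adjusted p = 0.0535), and Tsc1 near Gfi1b by 0.07 (adjusted p = 0.792). Myb with its flanks rose by 0.29 (adjusted p = 0.0181). Over its own span the Myb difference was not called and rested in large part on day 0 replicate 2. The wider span was not tested without that library.

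The proteins these factors work with were read from lists of related genes. Of the genes of 16 partner proteins, 5 rose in 5hmC and 0 fell from day 0 to day 2. This compares with 15.3% and 2.51% of all genes (median 0.23 against 0.09). They include the histone deacetylase Hdac1 at 0.73 (SE 0.14, adjusted p = 0.00268), the corepressor Cbfa2t3 at 0.55 (SE 0.10, adjusted p = 0.00282) and the GATA cofactor Zfpm1 at 0.35 (adjusted p = 0.0497). The acetyltransferase Crebbp differed by −0.20 (adjusted p = 0.678). Between the lines 4 partner genes were higher in DNMT_WT and 1 lower, against 14.9% and 4.07% of all genes. Among them were the E protein gene Tcf3 at 0.63 (adjusted p = 0.0149) and its relative Tcf4 at −0.35 (adjusted p = 0.0329).

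Of 19 paralogs, 7 rose and 0 fell, against 15.3% and 2.51% of all genes (median 0.17). Mybl2, the Myb relative used by dividing cells, went from −1.53 to 0.36, a rise of 1.89 (SE 0.20, adjusted p = 5.61e-05), where Myb itself differed by 0.30. Gata3 rose by 0.55 (SE 0.09, adjusted p = 0.000809), and so did Spib at 0.96 (adjusted p = 0.000881), Ikzf4 at 0.73 (adjusted p = 0.000908) and Gfi1 at 0.59 (adjusted p = 0.0208). Gata6 differed by −0.12 (adjusted p = 0.74), Runx2 by 0.07 and Runx3 by 0.23 (adjusted p = 0.802 and 0.222). Between the lines 5 paralogs were higher and 0 lower, where 14.9% and 4.07% of all genes were. Gfi1 and Lmo4 are also in the list of partner genes, so the called Gfi1 is counted in both lists. Spib and Ikzf4 were chosen for mention after their values were seen, as were Zfpm1, Gfi1, Tcf3, Tcf4 and the Runx paralogs. The same holds for the genes Hoxb4, Etv2, Etv6, Rag1, Thpo, Epor and Hba-x below.

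Of 18 other factors of blood stem cells, 6 rose and 0 fell, against 15.3% and 2.51% of all genes (median 0.29). Hoxa9 rose by 0.79 (SE 0.11, adjusted p = 0.000314), Bcl11a by 0.76 (SE 0.11, adjusted p = 0.000346) and Etv2, which starts the blood and vessel programme, by 0.99 (adjusted p = 0.00234). Klf1, the erythroid factor, differed by −0.23 (adjusted p = 0.357). Hoxb4 went furthest between the lines, 1.60 higher in DNMT_WT (SE 0.16, adjusted p = 6.65e-05). Over the list 5 were higher there and 1 lower, Etv6 (−0.40, adjusted p = 0.00284), with 14.9% and 4.07% of all genes so called.

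Of 20 genes that act downstream in blood cells, 2 rose and 2 fell, against 15.3% and 2.51% of all genes (median 0.08). Pf4, a platelet chemokine, fell by 1.44 (SE 0.15, adjusted p = 6.17e-05), and the recombinase gene Rag1 by 0.53 (adjusted p = 0.0332). Itga2b, an early blood and platelet integrin, rose by 0.56 (SE 0.13, adjusted p = 0.00832), and Thpo by 0.46 (adjusted p = 0.0085). Between the lines 4 were higher, such as Epor at 0.92 (adjusted p = 0.000224) and the embryonic globin Hba-x at 0.94 (adjusted p = 0.0111), and 2 lower, against 14.9% and 4.07% of all genes.

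Across the 11 libraries the 9 genes did not follow a single pattern. Lyl1 and Gata2 were most alike (r = 0.918), followed by Tal1 and Lyl1 (r = 0.891), while Tal1 and Runx1 ran opposite (r = −0.928). These are descriptions over libraries that fall into 4 groups, so they largely restate the group means. For each called gene, genes over 1 Mb away or on another chromosome were ranked by likeness. The one most like Tal1 was Rxfp4 (r = 0.983), the one most like Lyl1 was Agmat (r = 0.993) and the one most like Runx1 was Slc22a16 (r = 0.973). Many of these distant genes were nearly as close, with 94, 485 and 24 above r = 0.95.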

How the data were processed

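HMCP-seq libraries were made from 11 wild-type mouse samples. The authors deposited log2 RPKM per 2 kb tile, 1 column per library with replicates not pooled. Bowtie2 2.4.1, cutadapt 2.3 and Trim Galore 0.6.5 are listed, with the GRCm38 build, in the submitters' processing notes. How reads were counted in tiles is not given in the sources used here. Values came out as whole multiples of 1 read, within 0.1%, for 100% of values above the floor, and tiles without reads hold the value of 0.9 reads. That floor depends on depth, so low tiles of shallow libraries read higher than those of deep ones.

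Tiles on chromosomes 1 to 19 and X were tested (1183891 of 1362779) after leaving out the lowest 10% and highest 0.1% by mean over all libraries. Genes with at least 3 tested tiles in the RefSeq GRCm38.p6 span plus 2 kb were fitted in limma 3.58.1 (R 4.3.3), with a variance trend and all 11 libraries in 1 fit. Tests are two-sided, with Benjamini-Hochberg adjustment over all 20717 genes or over all tested tiles, and a call is an adjusted p under 0.05. The script was tested on simulated data.

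The 9 genes and all lists were chosen with earlier results of these data known. Every one of the 9 is named. For each, the start tiles and the largest called rise and fall were taken, and from each list the 2 genes with the smallest p from day 0 to day 2 and the one with the most opposite value. Alternatives were median centring, quantile normalization, no tile filter, a pseudocount of 0.1 RPKM, log2 of the mean RPKM, only the compared groups, a replicate block, no variance trend, other spans, equal depth, voom on recovered reads and leaving out each library. A restriction to tiles at or above the median signal was chosen after seeing the data.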

Additional observations from a re-analysis of the deposited data

How the results depend on the processing

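The rises of Lyl1 (0.45 to 0.87, largest adjusted p = 0.0436) and Tal1 (0.45 to 0.76, largest 0.0387) from day 0 to day 2, and the excess of Lyl1 in DNMT_WT (0.88 to 1.69, largest 0.000817), kept their direction and their call under all 24 alternatives run. Of the 156 alternative counts, 125 stayed within 1.5 times the main one. Of the 876 alternative values for single genes and tiles, 772 kept direction and call, 62 lost a call, 32 gained one and 10 reversed. Where a count or sign moved, the cause was not tested.

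From day 0 to day 2, 3 genes were called in the main analysis, 6 with log2 of the mean RPKM, 7 with voom, and 2 to 5 when 1 library was left out, 5 of them without TET_WT day 0 replicate 2. The 42 tiles became 22 with median centring, 3 without a variance trend and 25 to 49 when 1 library was left out, with 27 without day 0 replicate 1, 25 without day 2 replicate 1 and 26 without day 2 replicate 3. Between day 1 and day 2 the 2 genes became 0 with median centring, 4 with log2 of the mean RPKM, 1 without a variance trend, 1 over the annotated span only, 1 with voom, and 1 to 4 when 1 library was left out. The difference between the days' steps called 0 genes, 1 with log2 of the mean RPKM, 1 over the annotated span only, 1 over tiles at or above the median signal, and 0 to 1 without 1 library. On the first day every alternative called 0. Between the lines the 3 genes became 6 with only the compared groups, 1 at equal depth, and 2 to 6 without 1 library, 6 of them without day 0 replicate 2. The 16 tiles became 1 without a variance trend and 13 to 19 without 1 library.

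The sign reversed only for differences between the lines. Gata2, called at 0.581, went to −0.228 with flanks of 20 kb. The other 2 were not called. Lmo2 (−0.01) went to 0.204 with median centring, 0.069 with quantile normalization, 0.043 over the annotated span only and −0.062 to 0.024 without 1 library. Runx1 (−0.111) went to 0.103 with median centring, 0.011 with log2 of the mean RPKM and 0.014 with voom.

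The labels do not say whether libraries with the same replicate number belong together. Between day 0 and day 2 their deviations correlated at 0.029, 0.029 and −0.046. Between other groups the values ran from −0.288 (day 0 and day 1, replicate 2) to 0.299 (day 1 and DNMT_WT, replicate 2). So few libraries cannot settle whether they are paired. With a replicate block 3 genes and 43 tiles were called from day 0 to day 2, and 2 genes and 16 tiles between the lines, Tal1 being lost there (adjusted p = 0.0602).

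Depth limits the smallest genes and emptiest tiles most. The 5 tiles of Lyl1 held 58 reads in the shallowest library, and the Myb start tile 1 to 11 reads in any library.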
